A study of Homo sapiens with 64 samples.

Results

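The mitotic genes described here are 49 protein-coding genes of cell division, chosen by symbol and found in the count files by their Ensembl identifiers, of 54127 genes in the files (47098 of them with a symbol). RNA-seq read counts were made from 64 libraries of 6 human cell lines from colorectal cancers, SW48, RKO, SW948, HT55, HCT15 and DLD1. In each line, cells were stained with CFSE, a dye whose label is shared out between daughter cells, grown as non-adherent spheroids with bFGF and EGF for 6 days, and sorted into label-retaining cells (LRCs), which kept the dye, and non-LRCs, the bulk cells that had diluted it, with 4 libraries of each population in each line. A further 16 libraries labelled DLD1, which the labels put in neither sorted population, were controls carrying CFSE or the solvent DMSO at day 1 or day 5, with 4 libraries of each (the sample labels give day 5, where the series text gives day 6). All sorted cells had been stained with CFSE, and each line was grown without host tissue. The study's methods call the 4 libraries of a group biological replicates, the labels do not say how their cultures were kept apart, and p-values measure the spread between these libraries. The labels of the controls and of the sorted libraries did not match in expression. Over 16899 genes, all 16 control libraries, labelled DLD1, had their highest correlation with the mean of the non-LRC libraries labelled HCT15 (r from 0.95 to 0.995, against 0.926 to 0.965 with those labelled DLD1), as a description. Of 13 genes whose non-LRC means differed by at least 5 on the log2 scale between the libraries labelled DLD1 and HCT15, all 13 were nearer HCT15 in the controls. The epithelial marker KRT20, which did not reach that difference, had group means between 0.567 and 2.34 CPM in the controls. It was at 34.1 CPM in DLD1 non-LRCs and 2.94 CPM in HCT15 non-LRCs. LGR5 had group means between 0.451 and 1.25 CPM in the controls, and was at 47.9 and 0.129 CPM in those non-LRCs. Which of these labels is right cannot be told apart here, so DLD1 and HCT15 below mean the libraries with those labels. No control library is tested against a sorted one, and ranges printed for both are descriptions.

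Cells enter mitosis when CDK1 bound to cyclin B becomes active, and PLK1 and the Aurora kinases then drive centrosome maturation, spindle building and chromosome attachment. The spindle checkpoint holds the anaphase-promoting complex (APC/C) and its activator CDC20 in check until the chromosomes are attached, after which cyclin B and securin are destroyed and the cell divides. Many of these genes are transcribed mainly in late S, G2 and M phase, by the MuvB complex with B-MYB and FOXM1, through promoter elements called CHR and, for many, CCAAT boxes bound by NF-Y. In bulk RNA, fewer cells in mitosis and less RNA per mitotic cell cannot be told apart.

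Promoters are shown for CCNB2, CDC20, KIF15 and AURKB, which were lower in LRCs on average in the fit of all lines together. In that fit 10.7% of all 16603 genes tested were lower, and the share of members lower was close to this. The calls served to choose genes for display and are not read as a result about the members. CKS1B is also shown, as it had the lowest adjusted p for a difference of the LRC effect between the lines. The elements known from this gene group can be looked for in these promoters. The average fall was not seen in every line. All 49 members had positive values in HCT15, though these move together and no member was called there without a block. No member was called in HT55 or SW948 in the fits without a block. No member passed in that fit without DLD1 or without RKO. The LRC effect differed between the lines for CCNB2, CDC20 and AURKB as well, in a test where 14.3% of all genes differed. RefSeq promoter windows (GRCh38.p14, 250 bases before to 50 after the start) were found for 43 of the 49 members, the others being BIRC5, TPX2, UBE2C, AURKA, TTK and FOXM1. The 150 bases before the start are printed 5′ to 3′ in the direction of the gene, with TTTGAA (the common form of the CHR core) and CCAAT in capitals, or their complements where they lie on the other strand.
CCNB2 (chr15:59104996-59105145, plus strand): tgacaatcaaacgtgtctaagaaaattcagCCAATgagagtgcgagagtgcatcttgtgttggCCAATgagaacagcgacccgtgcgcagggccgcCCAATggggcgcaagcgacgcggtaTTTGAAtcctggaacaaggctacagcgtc
CDC20 (chr1:43358831-43358980, plus strand): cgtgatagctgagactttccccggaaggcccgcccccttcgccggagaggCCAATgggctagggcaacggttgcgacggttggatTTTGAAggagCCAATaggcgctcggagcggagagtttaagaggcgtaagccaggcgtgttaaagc
CKS1B (chr1:154974531-154974680, plus strand): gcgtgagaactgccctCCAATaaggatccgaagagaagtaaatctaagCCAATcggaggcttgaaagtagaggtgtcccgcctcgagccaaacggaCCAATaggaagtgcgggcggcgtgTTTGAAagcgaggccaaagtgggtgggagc
KIF15 (chr3:44761644-44761793, plus strand): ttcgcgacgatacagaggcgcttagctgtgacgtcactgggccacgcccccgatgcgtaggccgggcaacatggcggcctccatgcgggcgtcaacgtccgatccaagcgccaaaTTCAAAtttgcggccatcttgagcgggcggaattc
AURKB (chr17:8210250-8210399, minus strand, the second of 2 windows): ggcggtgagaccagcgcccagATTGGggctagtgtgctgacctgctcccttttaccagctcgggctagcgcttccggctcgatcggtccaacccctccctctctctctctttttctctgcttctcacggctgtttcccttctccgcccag
CCNB2 and CKS1B each held 3 CCAAT boxes and 1 TTTGAA, CDC20 held 2 CCAAT boxes and 1 TTTGAA, KIF15 held 1 TTTGAA on the other strand, and the second AURKB window held 1 CCAAT on the other strand. KIF15 held no CCAAT, neither AURKB window held TTTGAA, and the first AURKB window, not printed, held neither motif. On either strand, TTTGAA lay in these 150 bases in 25 of the members' 47 windows (53.2%) against 7.33% of the 35116 windows of all genes, and CCAAT in 37 of 47 (78.7%) against 23.5%. Both motifs, which can share at most 1 letter of sequence where they adjoin, were present in 22 of 47 windows (46.8%) against 1.94% of all windows. The members were chosen as mitotic genes, so this is a description of the group, and a match is not a measured binding site.

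Total reads on genes ran from 12237225 to 20913455 per library, with a median of 15063858. The epithelial keratins KRT8 and KRT18 were at or above 72.4 CPM (read counts scaled to library size with TMM factors) in every group mean, while CDH1, KRT19, KRT20 and VIL1 fell to group means between 0.128 and 0.893 CPM in their lowest groups. Of 11 markers of blood, stromal and endothelial cells, CD3E was at 0 in all libraries, and the 11 together summed to between 0.657 and 17.1 CPM in the group means, in which PTPRC, CD14, COL1A1 and PDGFRB gave the highest single means (14.96, 8.995, 8.964 and 7.315 CPM). The members took between 0.0972% and 0.58% of reads in sorted libraries and between 0.344% and 0.734% in controls. All 49 passed the filter of 10 reads in 4 libraries in every fit.

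Levels between genes were compared per kilobase of exon, with the exons of all annotated transcripts of a gene merged. The ranking depends on these merged lengths, which can exceed the length of the transcript that is expressed. CKS2, a small subunit that binds CDK1, had the highest level in non-LRCs, with a mean of 127 CPM per kb over the 6 line means and line means between 79.6 and 236. TPX2, which activates AURKA on the spindle, followed at 49.2 CPM per kb, then UBE2C, the ubiquitin-conjugating enzyme of the APC/C, at 44.1, TOP2A, which untangles sister DNA, at 43.1, and CCNB1, cyclin B1, at 39.6. The ranges of the line means of these 4 overlapped. CENPE, a kinetochore motor (2.33 CPM per kb), and CDCA3, a mitotic entry factor (1.63 CPM per kb), were lowest. Exons of PRC1 overlapped the antisense gene PRC1-AS1 over 34.3% of their length. Those of FOXM1 and CDCA3 overlapped ITFG2 (15.9%) and GNB3 (11.3%) on the opposite strand. Whether counting used strand is not given in the sources used here, so values of these genes may hold antisense reads or miss reads of the overlap. PTTG1 and CKS1B have near-identical copies elsewhere, and those listed had few reads (at most 183 over the 64 libraries for a CKS1B copy against 60120 for CKS1B).

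The mean log2 CPM of the 49 members summarised each library. In DLD1, LRC libraries 1 to 4 were at 5.23, 5.11, 4.65 and 4.73, and the non-LRC libraries were at 5.55, 5.48, 5.38 and 5.45. In RKO the LRC libraries were at 4.58, 4.98, 5.60 and 5.40, and the non-LRC libraries at 5.77, 5.68, 5.69 and 5.72. Every LRC library of these lines lay below every non-LRC library of its line, with the LRC libraries spread far more widely in RKO (SD 0.453 against 0.0430). In SW48 the LRC libraries were at 3.98, 5.31, 4.30 and 4.23, and the non-LRC libraries at 4.21, 5.97, 4.84 and 5.04. Both SW48 libraries of number 2 stood above the others of their group, and the groups overlapped, although LRCs were the lower of the pair under each number. In HCT15 the LRC libraries were at 6.22, 6.07, 5.38 and 5.24, and the non-LRC libraries at 5.60, 5.87, 5.13 and 5.03. The HCT15 libraries of numbers 1 and 2 stood above those of numbers 3 and 4 in both populations, and LRCs were the higher of the pair under each number. HT55 ranged from 4.97 to 5.61 in LRCs and 5.10 to 5.36 in non-LRCs, and SW948 from 5.78 to 6.09 and 5.91 to 6.00, with overlap in both.

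**Figure D1:**
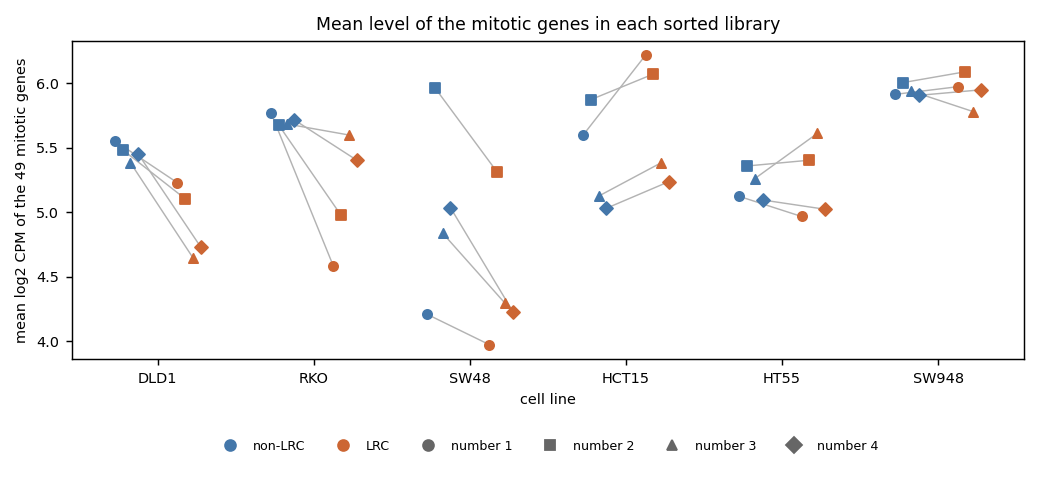
Mean log2 CPM of the 49 mitotic genes (vertical axis) in each of the 48 sorted libraries, by cell line (horizontal axis). Blue marks are non-LRC and orange marks LRC libraries, the marker shape is the replicate number, and lines join libraries of the same number. The lines fall in DLD1, RKO and SW48, rise in HCT15, and go both ways in HT55 and SW948.

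In DLD1, 30 of the 49 members were lower in LRCs than in non-LRCs and none was higher (edgeR's quasi-likelihood test, adjusted p under 0.05), where 7.89% of all 13592 genes tested were lower. The median log2 fold change of the members was -0.50, against 0.016 over all genes, all 49 values were negative, and 33 members had every LRC library below every non-LRC library, as did 10.7% of the 16603 genes kept over the sorted libraries. With the replicate number as a block, 48 members were lower (16.6% of all genes), all but CDCA3. CDC20, the activator of the APC/C, was at 56.8, 52.8, 40.6 and 42.7 CPM in LRCs and 82.3, 84.5, 74.4 and 82.8 CPM in non-LRCs. The 2 populations did not overlap, and CDC20 fell by 0.73 ± 0.10 on the log2 scale (SE, n = 4 and 4, adjusted p = 0.00186, edgeR).

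Cyclins fell with it in DLD1. CCNB1 averaged 51.6 ± 8.9 CPM in LRCs against 85.2 ± 3.7 in non-LRCs (SD, n = 4), and CCNB2 34.7 ± 9.7 against 59.5 ± 5.6. Their log2 fold changes were -0.70 ± 0.10 and -0.76 ± 0.16 (SE), and CCNA2, cyclin A2, had one of -0.62. Their partner CDK1 was at 40.5 ± 9.0 CPM against 50.1 ± 2.0, a log2 fold change of -0.29 ± 0.13 that did not pass the test (adjusted p = 0.156, edgeR) and did with the block (-0.30). The CDK1-binding subunits CKS1B and CKS2, with INCENP, the scaffold of the chromosomal passenger complex, had the values nearest 0 (-0.22, -0.23 and -0.22), none of which passed. Among the other roles, 6 of 7 spindle checkpoint and APC/C genes fell, 6 of 6 spindle assembly genes, 6 of 9 mitotic kinesins, 2 of 4 genes of the chromosomal passenger complex and 2 of 6 centromere and kinetochore genes. NUF2, an outer kinetochore subunit that binds microtubules, had the lowest value of all (-0.78 ± 0.19), whereas NDC80, its partner in the same complex, was at -0.31 and did not pass. MKI67, which coats mitotic chromosomes, fell from 347 ± 29 to 222 ± 33 CPM (-0.63), FOXM1 from 89.6 ± 6.5 to 59.8 ± 11.5 CPM (-0.56), and PLK1 from 48.5 ± 3.9 to 34.8 ± 5.6 CPM (-0.46). TOP2A was at 208 ± 47 against 276 ± 10 CPM and did not pass (-0.38, adjusted p = 0.0709, edgeR). The count fell to 19 without the non-LRC library of number 1, and was 1 when all 48 sorted libraries shared one estimate of the spread.

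In RKO, 35 members were lower in LRCs and none was higher, where 21.0% of the 12731 genes tested were lower. The median was -0.60 (0.0076 over all genes), all 49 values were negative, and 22 members had every LRC library below every non-LRC library, as did 14.2% of all genes kept. AURKB, the kinase of the chromosomal passenger complex, was at 16.6, 21.7, 31.1 and 20.8 CPM in LRCs and 44.1, 36.5, 48.6 and 43.5 in non-LRCs. It fell by 0.96 ± 0.14 (adjusted p = 9.29e-05, edgeR), its partner BIRC5, survivin, fell by the same 0.96 ± 0.19, and CCNA2 by 0.92 ± 0.15. All 7 spindle checkpoint and APC/C genes fell, with CDC20 at -0.77 ± 0.15 and its mean at 45.6 ± 12.8 against 76.8 ± 9.3 CPM. The count was 11 when all 48 libraries shared one estimate of the spread.

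Several members were near 0 in RKO. NEK2, a centrosome kinase, was at -0.06 ± 0.13, CENPF, a kinetochore protein, at -0.08 ± 0.16, CKS2 at -0.14 and TOP2A at -0.19 ± 0.19, and none passed. CKS1B, which had no call in DLD1, fell by 0.70 in RKO, from 46.9 ± 5.6 to 29.0 ± 5.5 CPM. LRC library 3 of RKO was close to the non-LRCs for many members: PLK1 was at 73.1 CPM there, against 32.9, 41.7 and 50.9 in the other LRC libraries and 71.6 to 86.1 in non-LRCs. Under number 3, 30 of the 49 members were lower in LRCs, against 49, 48 and 41 under numbers 1, 2 and 4. The share of reads on mitochondrial genes was 9.20% in RKO LRCs against 5.40% in non-LRCs, and its part in the result was not tested.

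SW48 gave 1 call, CKS1B, in the fit without a block, where 0.0758% of 13196 genes were lower, although the median of the members (-0.63, against -0.0072 over all genes) was as low as in RKO and all 49 values were negative. CKS1B was at 29.1, 31.2, 29.7 and 27.5 CPM in LRCs and 40.9, 48.4, 39.4 and 39.7 in non-LRCs. It was the single member without overlap, where 2.76% of all genes kept lay below without overlap, and fell by 0.52 ± 0.093 (adjusted p = 0.0321, edgeR). PLK1 was at 14.0, 37.9, 18.4 and 21.0 CPM in LRCs and 22.4, 87.8, 29.4 and 43.1 in non-LRCs. The library of number 2 was the highest of both populations for PLK1, and its log2 fold change of -1.01 ± 0.42 did not pass (adjusted p = 0.348, edgeR).

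With the replicate number as a block, 39 of the 49 members were lower in SW48 LRCs, where 4.33% of all genes were. PLK1 then fell by 0.93 ± 0.10 (adjusted p = 6.20e-04, edgeR), PTTG1, securin, by 0.88 ± 0.11 and KIF20A, the kinesin of the cleavage furrow, by 0.81 ± 0.13. Not called were CCNF, INCENP, CENPE, NUF2, KIF14, KIF20B, KIF23, ASPM, ECT2 and CDCA3. Without both libraries of number 2, an alternative chosen after seeing the data, 10 members were lower and the median was -0.61. CKS1B had no call when any one of the libraries of number 1, 3 or 4 of either population was left out. The mitochondrial share was 14.0% in SW48 LRCs against 10.6% in non-LRCs, and its part was not tested.

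HCT15 went the other way. No member was called without a block, where 0.728% of the 14017 genes tested were higher, and 5 members had an unadjusted p under 0.05, as did 17.2% of all genes. All 49 values were positive, with a median of 0.36 (-0.0021 over all genes). With the replicate number as a block, 36 members were higher in LRCs, where 11.3% of all genes were. CKS1B was at 106, 107, 65.3 and 53.2 CPM in HCT15 LRCs and 60.3, 74.9, 43.9 and 39.2 in non-LRCs. LRCs were higher under each number but the groups overlapped, and CKS1B rose by 0.60 ± 0.068 with the block (adjusted p = 1.66e-05, edgeR) against 0.61 ± 0.25 without it (adjusted p = 0.253). UBE2C (0.62 ± 0.085) and KIF2C, a microtubule-depolymerising kinesin (0.63 ± 0.074), also rose with the block. CCNB1, AURKB and MKI67 were among the 13 members with no call under the block, and CENPE, ASPM and KIF20B had the values nearest 0 (0.05, 0.09 and 0.10). Under numbers 1 to 4, 49, 41, 45 and 44 of the members were higher in LRCs. Without LRC library 1 the median was 0.19 and 43 of the 49 values were positive.

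In HT55 and SW948 no member was called, nor was any of the 13391 and 13674 genes tested (0% in both, also with the block in HT55). At an unadjusted p under 0.05 there were 1005 genes in HT55, none of them a member, and 2350 in SW948, 4 of them members. The members' medians were 0.07 and 0.03 (-0.0035 and -0.0056 over all genes), with values from -0.18 to 0.25 in HT55 and -0.29 to 0.39 in SW948. The median SE of a member was 0.17 in HT55 and 0.097 in SW948. CCNB1 was at 61.3 ± 14.8 CPM in HT55 LRCs against 57.1 ± 6.4 in non-LRCs, and at 152 ± 20 against 169 ± 6 in SW948. CKS2 had the highest value in SW948 (0.39 ± 0.12, adjusted p = 0.170, edgeR). MKI67 had the lowest value in both lines. In SW948 its LRC libraries were at 38.0, 126, 129 and 157 CPM against 129 to 156 in non-LRCs, so 1 library was apart and the other 3 overlapped.

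**Figure D2:**
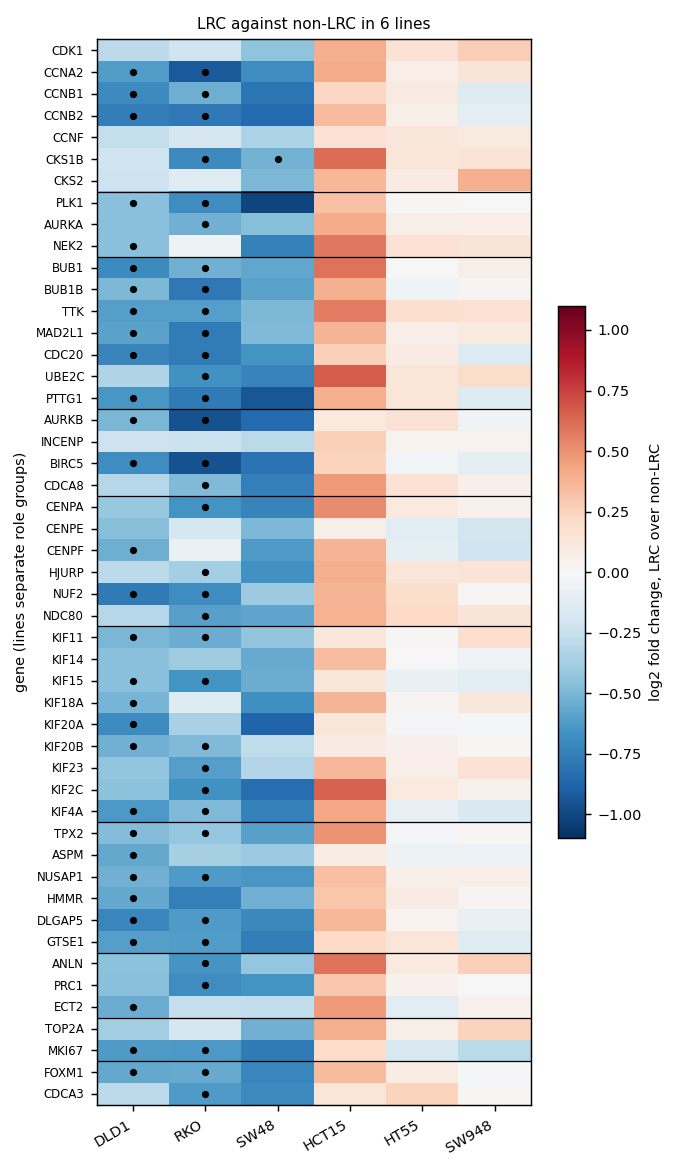
log2 fold change of each mitotic gene (rows, by role) in LRCs over non-LRCs in the 6 lines (columns). Blue is lower and red higher in LRCs, and dots mark an adjusted p under 0.05 in edgeR without a block: 30 genes in DLD1, 35 in RKO, 1 in SW48 and none in the other lines. All 49 values are negative in DLD1, RKO and SW48 and positive in HCT15.

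Across the 6 lines in one fit, 5 members were lower in LRCs, where 10.7% of the 16603 genes tested were, and the median of the members was -0.19 (0.015 over all genes). They were CDC20 (-0.32 ± 0.10, adjusted p = 0.0158, edgeR), BIRC5 (-0.39 ± 0.13), AURKB (-0.34 ± 0.12), CCNB2 (-0.34 ± 0.12) and KIF15, a spindle motor (-0.30 ± 0.11). MKI67 had as low a value with a wider error (-0.39 ± 0.16) and did not pass, and CKS2 was at 0.0019. The share of members called was close to that of all genes. This fit held a common LRC effect for all lines, so its p-values do not measure agreement between the lines. With replicate numbers, which paired libraries in 4 of the 6 lines, as a block, 19 members were lower. The share of all genes lower under that block is not given here, so this count is not read as a result about the members. Without HCT15, 22 members were called, without DLD1 or RKO none, without SW48 1, without SW948 3, and leaving out replicates 1, 2, 3 or 4 of all lines gave 3, 1, 1 and 0. The shares of all genes called in these runs are not given here, so a shift in the members alone cannot be told from one in all genes.

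The LRC effect differed between the 6 lines for 9 members in a test with 5 terms, where 14.3% of all genes differed: CKS1B (adjusted p = 0.00124, edgeR), CKS2, CDC20, CCNA2, KIF2C, NUSAP1, AURKB, TPX2 and CCNB2. The share of members was near that of all genes. With the replicate number as a block 43 members differed. The share of all genes that differed under that block is not given here, so no result about the members is drawn from this count. For CKS1B the log2 fold changes were -0.22 in DLD1, -0.70 in RKO, -0.52 in SW48, 0.61 in HCT15, 0.13 in HT55 and 0.14 in SW948. Without replicates 1, 2, 3 or 4 the count was 0, 18, 1 and 1, and leaving out a line gave 5 (DLD1), 3 (HCT15), 3 (SW948), 0 (RKO) and 27 (SW48). These counts too stand without the shares of all genes.

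DLD1 and HCT15 were compared directly. Their LRC effects differed by a median of -0.88 over the members, with all 49 differences negative, but no member passed in the fit without a block, where 0.560% of genes did, and 34 had an unadjusted p under 0.05, as did 14.9% of all genes. DESeq2 called 3. With the block, 41 members had a lower LRC effect in DLD1, where 4.74% of genes did. CDC20 differed by -0.99 ± 0.13 (adjusted p = 1.36e-05, edgeR) and CKS1B by -0.83 ± 0.14. Between HT55 and SW948 (0.126% of all genes called), and between RKO and SW48 (5.46%), no member differed in the fit without a block (edgeR) and 0 members had an unadjusted p under 0.05, with differences from -0.29 to 0.29 and from -0.27 to 0.70.

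**Figure D3:**
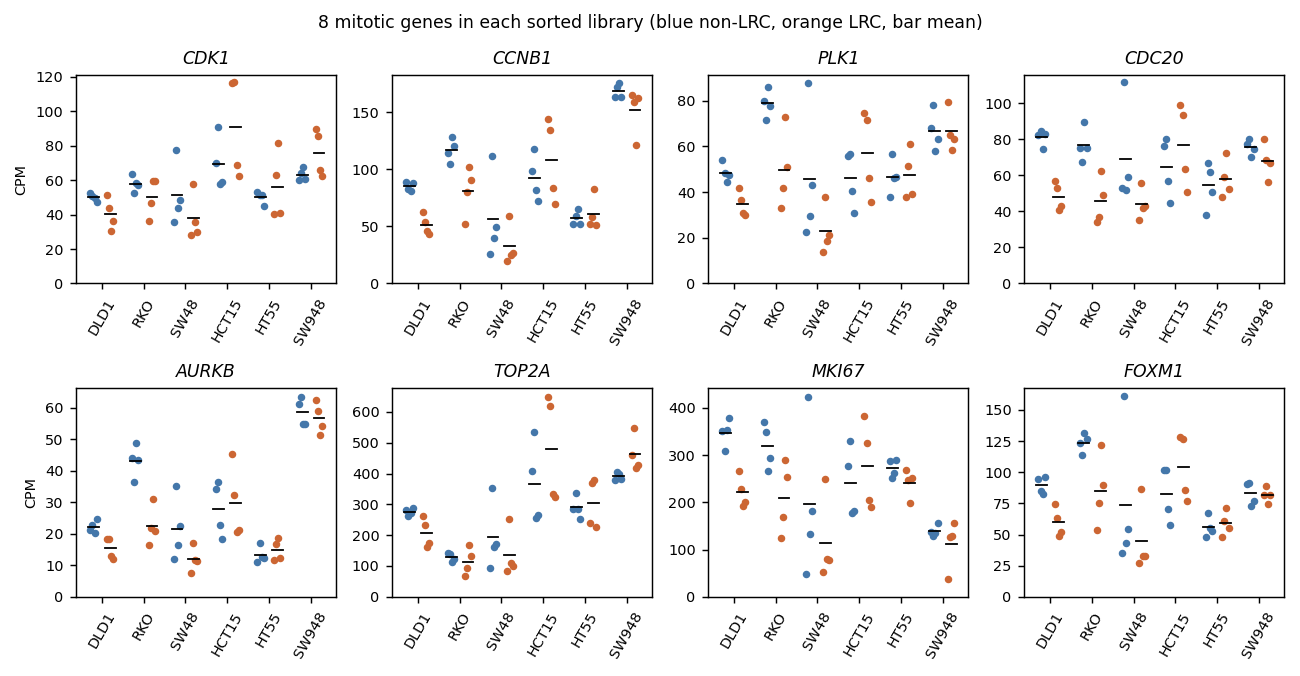
CPM (vertical axes, from 0) of 8 mitotic genes in each sorted library of the 6 lines, with non-LRC libraries in blue, LRC libraries in orange and the group mean as a bar. The DLD1 populations are apart for CDC20 and CCNB1, the SW48 library of number 2 is the highest of its group, and 1 SW948 LRC library is low for MKI67 (38.0 CPM).

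Within groups the members moved together. Over the 48 sorted libraries, after subtracting group means, each member's deviation correlated with the mean of the other members with a median r of 0.939 and a range of 0.683 to 0.982, as a description over libraries that share the same members. The median r of all 16603 genes with the members' mean was -0.014. In the 16 controls the median was 0.777 and the range -0.02 to 0.951, with CENPF and MKI67 near 0.

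Non-LRC levels differed between the lines for 42 of the 49 members, where 98.3% of all genes did. The 7 without a call were CDC20, CENPE, CENPF, KIF20B, KIF23, KIF4A and ASPM. KIF23, a motor of the central spindle, had line means between 43.4 and 50.6 CPM (adjusted p = 0.922, edgeR). SW948 had the highest line mean of 25 members and RKO of 16, while SW48 had the lowest of 21 and HT55 of 11.

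HT55 was below SW948 for 26 members and above it for 1, where 36.0% of all genes were lower. AURKB was at 13.2 ± 2.6 CPM in HT55 against 58.6 ± 4.4 in SW948, a log2 difference of -2.10 ± 0.23 (adjusted p = 9.26e-09, edgeR). PTTG1 (-1.69), KIF20A (-1.54) and CCNB1 (-1.52) followed, and MKI67 was the exception, at 272 ± 19 against 139 ± 12 CPM (1.01 ± 0.34). With library size alone as the scaling, the median over all genes shifted to -0.24 in this comparison and 38 members were lower. RKO was above SW48 for 29 members, where 32.9% of all genes were, and below it for HMMR, TOP2A, TTK and ECT2. UBE2C was higher in RKO by 1.62 ± 0.27, NUF2 by 1.59 ± 0.24 and CKS2 by 1.47 ± 0.14. HMMR, a spindle protein that is also a hyaluronan receptor, was at 4.14, 2.86, 3.19 and 3.19 CPM in RKO and at 8.57, 33.9, 16.5 and 16.5 in SW48. The RKO libraries lay below every library of the other 5 lines for HMMR, and the difference from SW48 was -2.50 ± 0.28. DLD1 and HCT15 differed for 7 members, where 49.4% of all genes differed: BUB1, BUB1B, DLGAP5 and ECT2 were higher in DLD1, and CDK1, CKS1B and NUSAP1 lower. That split of 4 and 3 became 2 and 4 with library size alone, so no direction is drawn from it.

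**Figure D4:**
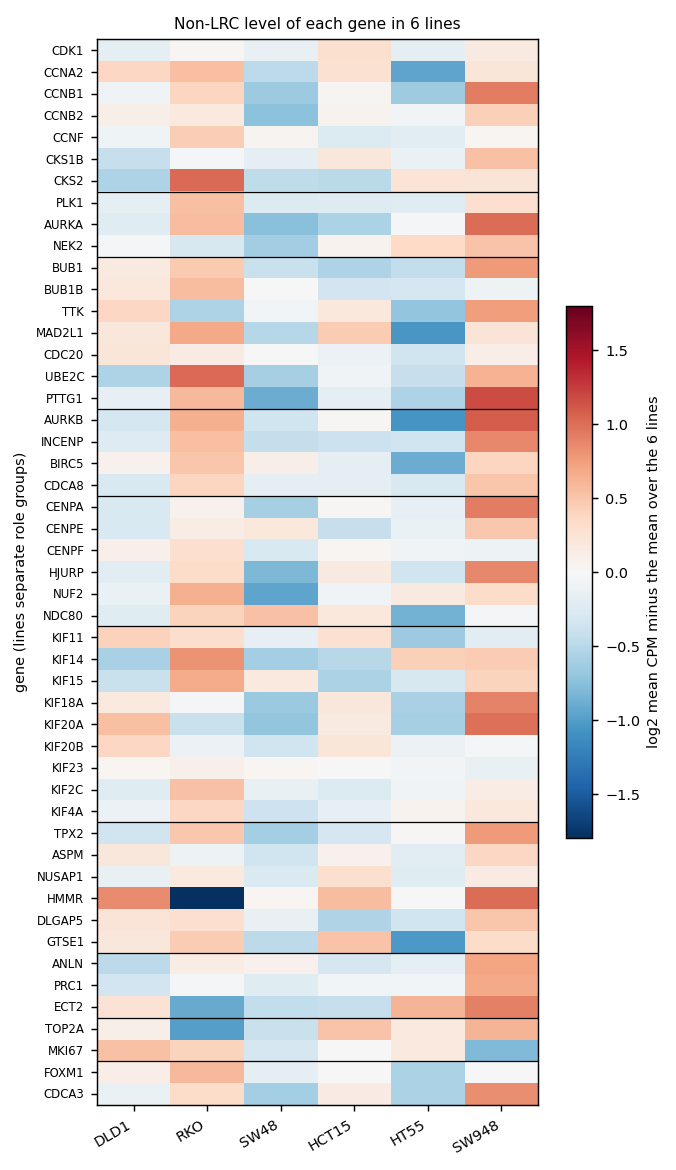
Non-LRC level of each mitotic gene (rows, by role) in the 6 lines (columns), as log2 of the mean CPM of 4 libraries minus the mean over the lines. Red is above and blue below the mean of the 6 lines, and values past the ends of the color bar take its end color. HMMR in RKO (mean 3.34 CPM) is the lowest cell of its row, and AURKB is highest in SW948 (58.6 CPM).

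In the controls, labelled DLD1, members that passed were lower over time with DMSO and higher over time with CFSE. With DMSO, 22 members were lower at day 5 than at day 1 and none was higher, where 13.1% of the 14518 genes tested were lower, with a median of -0.40 (0.041 over all genes). With CFSE, 12 members were higher and none was lower, where 20.2% of all genes were higher, with a median of 0.27 (0.022 over all genes). The share of members higher with CFSE was close to that of all genes, so this count is not read as a result about the members. TOP2A and NUSAP1 passed in both, 44 members had a negative value with DMSO and a positive one with CFSE, and CENPE, KIF14, MKI67, CDC20 and ASPM were negative in both. TOP2A was at 808, 818, 851 and 668 CPM at day 1 and 462, 647, 632 and 553 at day 5 with DMSO, and at 507, 494, 612 and 649 at day 1 and 971, 995, 963 and 902 at day 5 with CFSE. Neither pair of days overlapped, and TOP2A fell by 0.46 ± 0.13 with DMSO and rose by 0.76 ± 0.13 with CFSE (adjusted p = 0.0201 and 4.90e-04, edgeR).

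With DMSO, CENPE fell by 1.27 ± 0.26, KIF14, a midbody kinesin, by 1.14 ± 0.18 and KIF15 by 0.92 ± 0.16, while MAD2L1, PTTG1 and CCNB2 stood at -0.0015, -0.013 and -0.014. By role, 5 of 6 centromere and kinetochore genes and 5 of 9 kinesins fell, against 1 of 7 genes of the CDK1, cyclin and CKS group. With CFSE, KIF20A rose by 0.84 ± 0.12, CDK1 by 0.79 ± 0.17 and CCNB2 by 0.67 ± 0.13. KIF20A was at 75.8, 85.8, 80.5 and 79.7 CPM at day 1 and 154, 151, 128 and 142 at day 5 with CFSE, which did not overlap. DMSO library 4 of day 1 had a mean member level of 6.17 log2 CPM, against 6.66 to 6.72 in the other 3. Without it 42 members were lower with DMSO, and without DMSO day 1 libraries 1, 2 or 3 or day 5 library 1 the counts were 7, 9, 10 and 13. The CFSE count was 6 without day 1 library 2 of CFSE and 7 without day 5 library 1 of DMSO. The shares of all genes called in these runs are not given here.

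At day 1 the dye groups differed for 6 members, where 21.8% of all genes differed, and the median was -0.05 (-0.011 over all genes). CDC20 was higher with CFSE, at 250, 284, 225 and 224 CPM against 187, 208, 161 and 119 with DMSO (0.54 ± 0.17, adjusted p = 0.0340, edgeR), as was PTTG1 (0.40 ± 0.14). TOP2A (-0.48), KIF15 (-0.53), CENPA, the centromeric histone (-0.42), and CDCA3 (-0.71) were lower with CFSE. The count was 1 without CFSE day 1 library 1 or library 2 and 3 without DMSO day 1 library 3.

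At day 5, 40 of the 49 members were higher with CFSE than with DMSO and none was lower, where 3.11% of all genes were higher, with a median of 0.67 (-0.034 over all genes). All 49 values were positive, and 42 members had every CFSE library above every DMSO library, as did 9.33% of all genes. ANLN, a scaffold of the cleavage furrow, was at 295, 312, 229 and 234 CPM with CFSE and 116, 163, 153 and 129 with DMSO. It was higher by 0.93 ± 0.15 (adjusted p = 0.0161, edgeR), followed by KIF2C (0.89 ± 0.18) and CCNB1 (0.86 ± 0.14). Not called were CKS2, MAD2L1, AURKB, INCENP, CENPE, CENPF, HMMR, MKI67 and CDCA3, whose values ran from 0.32 to 0.84. No member was called without CFSE day 5 library 1 or 2 or without DMSO day 5 library 1, 3 were without DMSO day 5 library 4 and 10 without DMSO day 5 library 3. In these fits between 45 and 48 members had an unadjusted p under 0.05, as did between 16.4% and 22.1% of all genes, and over all fits that left out 1 library the median stayed between 0.615 and 0.731.

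The change with time differed between the dye groups for 8 members, all with a higher change under CFSE, where 0.847% of all genes did: TOP2A (1.22 ± 0.18, adjusted p = 0.00863, edgeR), KIF15, CCNF, CDCA3, CENPA, KIF20A, NDC80 and KIF23. The median difference was 0.71 (-0.013 over all genes) and all 49 were positive. The time and dye comparisons share control libraries. DESeq2 called 23, and leaving out 1 library gave between 1 and 36, with the most without DMSO day 1 library 4. The shares of all genes called in those runs are not given here. The share of reads in no annotated feature was 11.4% and 13.4% in the day 1 groups with DMSO and CFSE and 6.58% and 6.18% in the day 5 groups, and its part in the changes with time was not tested.

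**Figure D5:**
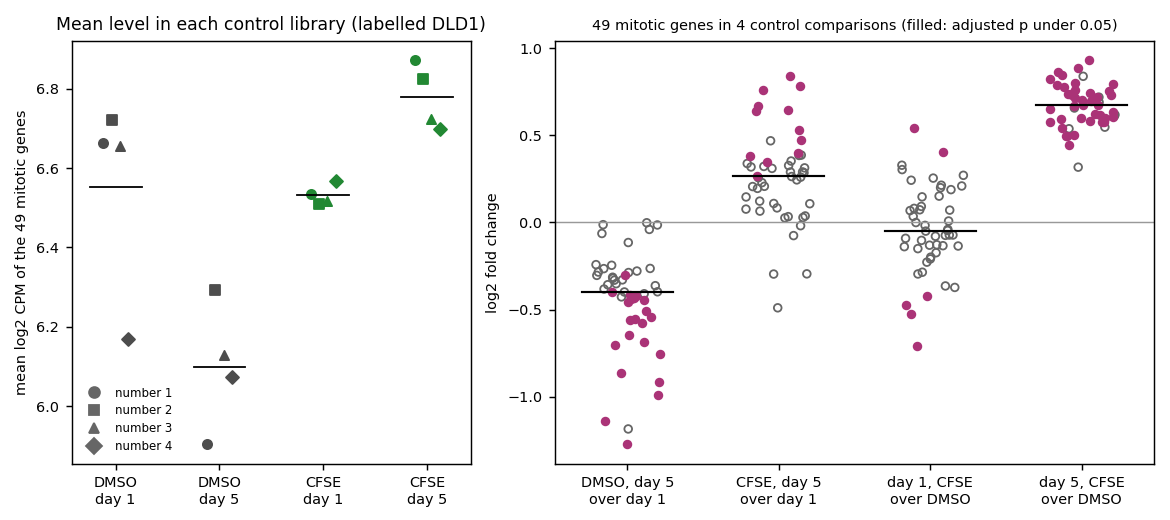
Controls labelled DLD1. Left: mean log2 CPM of the 49 mitotic genes in each library of the 4 groups, with the group mean as a line (DMSO gray, CFSE green, marker shape the replicate number). Right: log2 fold change of each of the 49 genes in 4 comparisons with the median as a line and calls filled, lower over time with DMSO (22 called), higher over time with CFSE (12, a share close to that of all genes) and higher with CFSE at day 5 (40).

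The members with the longest exons stood apart from the rest in some libraries. MKI67 (12845 bases of exon), CENPF (12471), ASPM (11994) and CENPE (9928) are the longest of the 49, whose median is 4113 bases. At day 5 MKI67 was at 94.8, 151, 430 and 539 CPM with DMSO and 363, 188, 854 and 554 CPM with CFSE, against 527 to 770 and 570 to 639 at day 1. The libraries of numbers 1 and 2 were low at day 5 in both dye groups. The mean log2 CPM of these 4 genes minus that of the other 45 was -0.013 and -0.097 in DMSO day 5 libraries 1 and 2 and 0.20 and -0.23 in those of CFSE, against 0.80 to 1.24 in day 5 libraries 3 and 4 and 0.88 to 1.33 in the day 1 libraries. LRC library 1 of SW948 was alike, at -0.88 against 0.25 to 0.70 in the other LRC and non-LRC libraries of that line, and CENPE was at 14.0 CPM in it against 25.3 to 39.2 in the other LRC libraries. Over the 49 members, log2 exon length and the change with time in DMSO had r = -0.52, and with the LRC effect r = -0.53 in HT55, -0.36 in SW948, -0.34 in HCT15, -0.15 in DLD1, 0.24 in RKO and 0.32 in SW48, as descriptions over genes that share libraries. In SW48, non-LRC library 1 was at 0.29 against 1.16 to 1.23 in the other non-LRC libraries and 0.84 to 1.38 in LRCs. The part of length in these results was not tested.

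Other genes of the cell cycle, from lists chosen with earlier results of these data known, had the following counts, to be read against 7.89% of all genes lower in DLD1, 21.0% in RKO and 10.7% across the lines. Of 41 DNA replication genes, which copy DNA in S phase, 32 were lower in DLD1 LRCs (median -0.49), 37 in RKO (-0.68) and 21 across the lines, with none higher. POLD1, a DNA polymerase subunit, was at -0.38 ± 0.082 and MCM3, of the replicative helicase, at -0.24 ± 0.053 across the lines. Condensin, which compacts chromosomes, had 7 of 8 genes lower in DLD1 and 7 in RKO. Of 32 other centromere and kinetochore genes, 17 were lower and 1 higher in DLD1 and 21 were lower in RKO. Of 14 other spindle and cytokinesis genes, 9 were lower in DLD1 and 7 in RKO, and of 12 cohesin, shugoshin and separase genes 6 and 4.

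Lists of regulators were counted in the same way, against the same 7.89% of all genes lower in DLD1 and 21.0% in RKO. The shares of all genes higher in DLD1 or RKO are not given here, so counts of higher list genes in them have no such comparison. Of 17 APC/C subunits and partners, which persist through the cycle, 2 were lower and 1 higher in DLD1 and 8 were lower in RKO, with medians of -0.08 and -0.11. Of 12 genes that set CDK1 activity, 2 were lower in DLD1, and 10 were lower and 1 higher in RKO. Of 17 MuvB, B-MYB, E2F and pocket protein genes, 4 were lower in DLD1, and 9 were lower and 2 higher in RKO, with values from -1.27 to 1.24. Across the 6 lines, ANAPC7 (-0.22 ± 0.034) and ANAPC15 (-0.32 ± 0.067) of the APC/C, ENSA (-0.16), which restrains a phosphatase opposed to CDK1, CDC25A (-0.26), a phosphatase that activates it, TFDP1 (-0.19) and E2F4 (-0.17), of the E2F family, SMC1A of cohesin (-0.22), NCAPH2 (-0.22) and NCAPD3 (-0.17) of condensin and the kinetochore genes PMF1 (-0.20) and CENPH (-0.38) fell, and WAPL, which releases cohesin, rose by 0.10. Among 9 colorectal epithelial markers none was called in DLD1, 2 of 6 were higher in RKO, and across the lines VIL1, an actin-bundling protein of the brush border, fell by 0.30 ± 0.10 (adjusted p = 0.0241, edgeR). No gene of any list was called in HCT15, HT55, SW948 or SW48 without a block. In the controls, where 13.1% of all genes were lower over time with DMSO, 20.2% higher over time with CFSE and 3.11% higher with CFSE at day 5, 32 of the 41 DNA replication genes were lower over time with DMSO, 9 were higher and 1 lower over time with CFSE, and 32 were higher with CFSE at day 5, and condensin had 7 of 8 lower over time with DMSO and 7 higher with CFSE at day 5.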

How the data were processed

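Per the labels and the study's methods, RNA of sorted LRCs and non-LRCs of 6 lines and of DLD1 controls was sequenced as single-end reads of 50 bases. The deposited values are raw read counts per gene, 1 file per library, and the submitters' processing notes name TopHat, HTSeq, DESeq and hg19. Their versions, and whether counting used strand, are not given in the sources used here. Rows that name no gene were left out of library sizes and tests. Gene identities, exon lengths and overlaps came from GRCh37 gene models. Promoters came from RefSeq on GRCh38.p14, a different build, and positions were not compared between the builds.

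Genes that reached 10 counts in 4 or more libraries of a fit were kept, scaled by TMM and tested over the whole table with edgeR 4.0.16 (quasi-likelihood, Benjamini-Hochberg adjustment, threshold 0.05) in R 4.3.3. Each line was fitted alone, and the lines together, the non-LRC levels and the controls in fits of their own. Log2 CPM used a prior count of 2. DESeq2 1.42.0, RLE, library size alone, no filter, the replicate number as a block and leaving out libraries or lines were alternatives. Member counts from alternatives that stand without the share of all genes in the same run are not read as results about the members. The fits were tested on simulated data. Correlations of control libraries with each line used log2(CPM + 1) on library size alone.

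Same-numbered libraries deviated together in DLD1 (r from 0.155 to 0.337), HCT15 (0.241 to 0.434), HT55 (0.142 to 0.399) and SW48 (0.128 to 0.463), which was taken as pairing from the data and not from the labels. Of the 4 LRC libraries, 2 in DLD1, 3 in HCT15, 3 in HT55 and 4 in SW48 correlated best with their own number. CFSE controls of day 1 and day 5 also deviated together (0.158 to 0.289), unlike those with DMSO (-0.273 to 0.178). Control results above are given without a block. In SW948 (0.0112 to 0.12) and RKO (-0.0685 to 0.0146) the numbers did not pair. The members and lists were chosen with earlier results of these data known. Values are printed for 8 genes chosen by name (CDK1, CCNB1, PLK1, CDC20, AURKB, TOP2A, MKI67 and FOXM1), the members of lowest p in each role, the 3 highest and 3 lowest in a comparison, members called against the majority and up to 2 genes per list. Other named values (CKS1B levels, single libraries, the longest members) were chosen after their values were seen. LIN37, UHRF1 and PECAM1 were not analysed here. Errors are the SD or SE between libraries.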

Additional observations from a re-analysis of the deposited data

Results flagged for a closer look

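In 5 of 144 sets of 4 libraries tested, 1 library lay further from the rest than Dixon's 95% critical value allows. Chance alone gives such gaps in a small share of sets. The sets are not independent, as the members moved together, and CDK1 and the members' mean were flagged in the same library. Whether these gaps arose by chance was not tested. All values are log2 CPM. FOXM1 was at 6.44 in SW48 LRC library 2, against 4.78 to 5.04 in the other 3. CCNB1 was at 6.93 in SW948 LRC library 3, against 7.32 to 7.37. MKI67 was at 5.25 in SW948 LRC library 1, against 6.98 to 7.30. In DMSO day 1 library 4 the mean of the 49 members was 6.17, against 6.66 to 6.72, and CDK1 was at 6.51, against 6.92 to 6.95.

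The LRC effect differed between the 6 lines for 9 members, where 14.3% of all genes did, and the change with time differed between the dye groups for 8 members, where 0.847% of all genes did (edgeR's quasi-likelihood test, adjusted p under 0.05 in each).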

How the results depend on the processing

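Values are numbers of members called, without the share of all genes called in the same run. With the replicate number as a block the count was 48 in DLD1, 36 in HCT15, 39 in SW48, 1 in SW948, 19 across the lines, 43 for the effect between lines, 41 for DLD1 against HCT15 and 1 for RKO against SW48. In SW948 and RKO the numbers did not pair the samples. With one fit of all 48 sorted libraries the counts were 1 in DLD1, 1 in HCT15 and 11 in RKO. Without a filter they were 2 in SW948, 3 in SW48, 40 between lines, 24 for DLD1 against HCT15, 11 for their non-LRC levels (5 higher and 6 lower, so the majority reversed) and 21 for time by dye. With library size alone they were 6 for the DLD1 and HCT15 levels (2 higher and 4 lower, reversed), 36 for time with DMSO, 6 for time with CFSE and 5 for time by dye, for which RLE gave 5. DESeq2 gave 3 for DLD1 against HCT15 and 23 for time by dye. Without both SW48 libraries of number 2, chosen after seeing the data, SW48 gave 10. Leaving out DLD1, HCT15, SW948, RKO or SW48 gave 0, 22, 3, 0 and 1 across lines and 5, 3, 3, 0 and 27 between lines, and leaving out SW48 gave 4 for DLD1 against HCT15. The cause of these changes was not tested.

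Leaving out 1 library, or 1 number in fits over lines, gave 19 to 40 in DLD1, 0 to 4 in SW948 (4 without LRC library 4), 24 to 43 in RKO, 0 to 1 in SW48, 0 to 3 across lines, 0 to 18 between lines, 0 to 2 for DLD1 against HCT15, 5 to 12 for DLD1 against HCT15 levels, 27 to 36 for HT55 against SW948 levels, 22 to 43 for RKO against SW48 levels, 41 to 48 for levels between lines, 7 to 42 for time with DMSO, 6 to 18 for time with CFSE, 1 to 8 for dye at day 1, 0 to 45 for dye at day 5 and 1 to 36 for time by dye. The DLD1 against HCT15 levels turned to mostly lower at 5, 5, 5, 6, 5 and 12 calls without DLD1 non-LRC library 1 or 2, HCT15 non-LRC library 1, 3 or 4, or SW48 non-LRC library 2. The median of the members moved to -0.18 in SW48 without non-LRC library 2 and to -1.01 without LRC library 2, to -0.90 for HT55 against SW948 levels with library size alone, and for RKO against SW48 levels to 0.35 and 1.03 without SW48 non-LRC library 1 or 2. The other 276 counts stayed within 1.5 times, and no named member that was called changed its direction in any alternative run.

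With 4 libraries a group, the median SE of a member was widest in SW48 (0.38) and HCT15 (0.25), and all 49 members passed the filter on low counts.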
